A study of Mus musculus with 3 samples.

Results

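The 9 genes for transcription factors of cartilage Sox9, Sox5, Sox6, Trps1, Runx3, Mef2c, Foxa2, Foxa3 and Nkx3-2 were followed through 3 single-cell RNA sequencing libraries of mouse bone-lining cells, or BLCs, which lie on the surface of bone facing the marrow. They were chosen by symbol and are 9 of the 32285 genes in the deposited tables. The BLCs came from wild-type mice: leg and iliac bones were digested with collagenase once the marrow had been flushed out, and the cells were sorted as Alcam+Sca-1- after staining that also covered CD45, Ter119 and CD31. All 3 libraries belong to the same untreated group, so every comparison here is between populations of cells within the libraries. The labels give no age, sex or animal number, and the study's methods call the 3 samples independent.

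SOX9 is the factor without which mesenchymal cells do not become cartilage. SOX5 and SOX6 lack an activation domain of their own and assist SOX9 at the enhancers of the genes for cartilage collagens and aggrecan, and the SOX trio is the name given to the 3 together. Later in the growth plate, MEF2C, RUNX factors, FOXA2 and FOXA3 are known to drive chondrocytes towards hypertrophy, whereas NKX3-2 and TRPS1 are known to restrain or time that step.

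Acan, which encodes aggrecan, the large proteoglycan of cartilage, defined the cartilage-gated cells (at least 2 UMIs, unique molecular identifiers that each stand for 1 captured transcript, and at least 300 CPM, the UMIs of a gene scaled to the same total in every cell or sum). There were 12422 such cells among 18232. They made up 17.9%, 76.6% and 75.6% of the cells of replicates 1, 2 and 3, so replicate 1 stood apart in its composition. Within them, 5 states were set by a marker each, at 2 or more UMIs and at least 2 times its mean over cartilage-gated cells: Prkg2 (1412 cells), Ibsp (1631), Lef1 (1768), Cilp (1535) and Wif1 (1745). None of the 9 genes was used for a gate. The states overlap, since 2175 of the 8091 state-gated cells passed more than 1 gate and were placed by the marker furthest above its mean. The largest overlap was between Ibsp and Wif1, with 1238 cells passing both. The next was between Prkg2 and Lef1, with 343. Replicate 1 held only 16, 31, 31, 197 and 35 cells in the states in that order. Cell barcodes shared between libraries numbered 5, 8 and 27.

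The gates were read against further markers of chondrocyte states. These check genes, like the gate genes, were chosen with earlier results of these data known. They describe the gates and do not test them. Matn3 and Ucma, matrix genes of growth plate cartilage, were high in the Prkg2 gate and, in replicates 2 and 3, also in the Lef1 gate. In replicate 1 the Lef1 gate had 44.2 CPM of Matn3 and 162 CPM of Ucma, under the 56.9 and 227 CPM of the Wif1 gate. The Wnt target Notum and Sfrp5 were highest in the Lef1 gate, and Prg4 (lubricin) and Clu were highest in the Cilp gate. Myoc was highest in the Wif1 gate on average and in replicates 2 and 3. In replicate 1 Myoc was 1003 CPM in the Lef1 gate and 873 CPM in the Wif1 gate. Cytl1, also checked for the Wif1 gate, did not single it out: it was 29480, 25584 and 25784 CPM there and 28117, 30981 and 32408 CPM in the Cilp gate. The hypertrophic collagen gene Col10a1 did not set the Ibsp gate apart: it averaged 408 ± 53.1 CPM there (SD, n = 3 libraries, as for all means below), 643 ± 244 CPM in the Cilp gate and 526 ± 124 CPM in the Wif1 gate. Ihh, made by prehypertrophic chondrocytes, was 29.97, 6.52 and 3.43 CPM in the Ibsp gate and averaged at most 2.01 CPM in the other 4 states. Outside replicate 1 the gap was small, with 5.35 CPM in the Prkg2 gate of replicate 2 and 2.54 CPM in the Wif1 gate of replicate 3. For this reason the populations are called by their gate gene and not by a stage. In replicate 1 the bone genes Bglap and Col1a1 summed to 9707 CPM in the Ibsp gate, against 1335 and 1139 CPM in replicates 2 and 3; the part of this in the Ibsp values of replicate 1 was not tested. The leukocyte markers Ptprc, Laptm5, Coro1a and Cd52 summed to 0 to 2.94 CPM over the 15 sums of state and library, against 1323 to 1668 CPM in leukocyte-gated cells.

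Counting of the members was of very unequal depth. Sox9 had 178975 UMIs in all, Trps1 148630, Sox5 78715, Sox6 41828, Runx3 13827, Mef2c 12782, Foxa3 7084 and Foxa2 722. Nkx3-2 had 77. Cartilage-gated cells held 95.3% of the Sox9 UMIs, 95.1% of those of Foxa3 and between 84.7% and 92.2% of those of each other member except Mef2c, for which the share was 58.5%. These shares are to be read against the size of the gate, which held 12422 of the 18232 cells and 17.9% of those of replicate 1. Its cells were also deeper. Their median UMIs were 6316.5, 11452.5 and 6649.5 in replicates 1, 2 and 3, and those of the other cells 5310, 5143.5 and 2989.5. The share of all UMIs in the gate was not worked out. The pooled shares of the members were carried by replicates 2 and 3. In replicate 1, with few cartilage-gated cells, the share was 73.6% for Sox9, 68.8% for Foxa3, 61.9% for Foxa2, 37.0% for Trps1, 36.03% for Sox5, 26.4% for Sox6, 17.6% for Runx3 and 10.3% for Mef2c.

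All but Mef2c and Nkx3-2 were higher in cartilage-gated than in other cells. With raw UMIs summed per library and side and tested by edgeR's quasi-likelihood test with the library as a block, 8 of the 9 members passed an adjusted p of 0.05, 7 higher and 1 lower. Over all 18831 genes tested 32.6% passed, and the members' median log2 fold change was 1.74 against -0.01 over all genes. Sox9 was at 1706, 1389 and 1559 CPM in cartilage-gated cells of replicates 1, 2 and 3 and at 92.5, 196 and 298 CPM in the other cells. The 2 sides did not overlap, and the log2 fold change was 3.44 (SE 0.44, edgeR adjusted p = 0.00704). The Sox9 level outside cartilage was lowest in replicate 1, the library with the smallest share of cartilage-gated cells, and so was that in leukocyte-gated cells, at 1.86, 21.1 and 27.1 CPM. The part of free RNA in these values was not tested.

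The partners of Sox9 changed in the same direction by less. Sox5 was at 539, 621 and 594 CPM in cartilage-gated cells and at 170, 215 and 274 CPM in the others (log2 fold change 1.76, SE 0.18, edgeR adjusted p = 0.00401). Sox6 was at 253, 316 and 296 CPM against 127, 183 and 212 CPM (1.07, SE 0.16, edgeR adjusted p = 0.0105). Both genes were thus well above 0 outside cartilage, which was not so for Foxa3. Among populations gated outside it, Igfbp6-gated cells (Igfbp6 is used here as a fibroblast marker) had 483 ± 56.0 CPM of Sox5, beside 488 ± 19.5 CPM in the Cilp state. Their Sox9 was 283 ± 72.6 CPM, beside 1322 ± 443 CPM in that state. The Myh11-gated cells of replicate 1, marked by a smooth muscle myosin, had 529 CPM of Sox5. These levels were set side by side without a test. Lepr-gated cells, marked by the leptin receptor of marrow reticular cells, had 277 ± 63.6 CPM of Sox5 and 102 ± 62.4 CPM of Sox6. Sox6 was higher elsewhere outside cartilage, at 314 ± 87.6 CPM in cells that passed no gate. It was 239 CPM in Myh11-gated cells of replicate 1 and 208 ± 60.9 CPM in Igfbp6-gated cells. The Wif1, Ibsp and Cilp states averaged 231 ± 28.8, 234 ± 18.2 and 268 ± 38.0 CPM of Sox6, again without a test between these levels.

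Trps1, an atypical GATA factor that acts mainly as a repressor, rose from 288, 426 and 532 CPM in the other cells to 951, 1173 and 1127 CPM in cartilage-gated cells (log2 fold change 1.74, SE 0.20, edgeR adjusted p = 0.00538). Foxa3 rose from 3.84, 7.25 and 10.51 CPM to 50.7, 58.6 and 58.1 CPM (3.37, SE 0.29, edgeR adjusted p = 0.00291), a fold close to that of Sox9. Foxa2, its relative, was scarce on both sides, at 4.14, 5.51 and 5.86 CPM against 0.420, 1.41 and 0.826 CPM (2.90, SE 0.37, edgeR adjusted p = 0.00694). Runx3 separated the sides in every library but by little in replicate 1, where it was 51.0 against 44.1 CPM. In replicates 2 and 3 it was 116 against 31.5 and 99.2 against 35.4 CPM (1.53, SE 0.33, edgeR adjusted p = 0.0276). Mef2c went the other way, with 69.5, 68.2 and 59.7 CPM in cartilage-gated cells and 110, 163 and 159 CPM in the others (-0.80, SE 0.20, edgeR adjusted p = 0.0376). Nkx3-2, the homeobox repressor also called Bapx1, had 71 UMIs in cartilage-gated and 6 in other cells and did not pass (edgeR adjusted p = 0.186).

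The calls depended on the libraries. Without replicate 1, 8 members passed, whereas without replicate 2 or without replicate 3 it fell to 4. Sox9, Sox5 and Foxa3 passed in each of these fits (for Sox9 with log2 fold changes of 2.89, 3.65 and 3.85). Without replicate 2 the calls lost were those of Mef2c (edgeR adjusted p = 0.223), Runx3 (0.112), Sox6 (0.092) and Trps1 (0.056), and without replicate 3 those of Foxa2 (0.0573), Mef2c (0.214), Runx3 (0.134) and Sox6 (0.0564). Mef2c also missed the threshold when cells passing both the Acan gate and a gate for bone, reticular or blood cells were kept (-0.69, edgeR adjusted p = 0.0754).

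**Figure D1:**
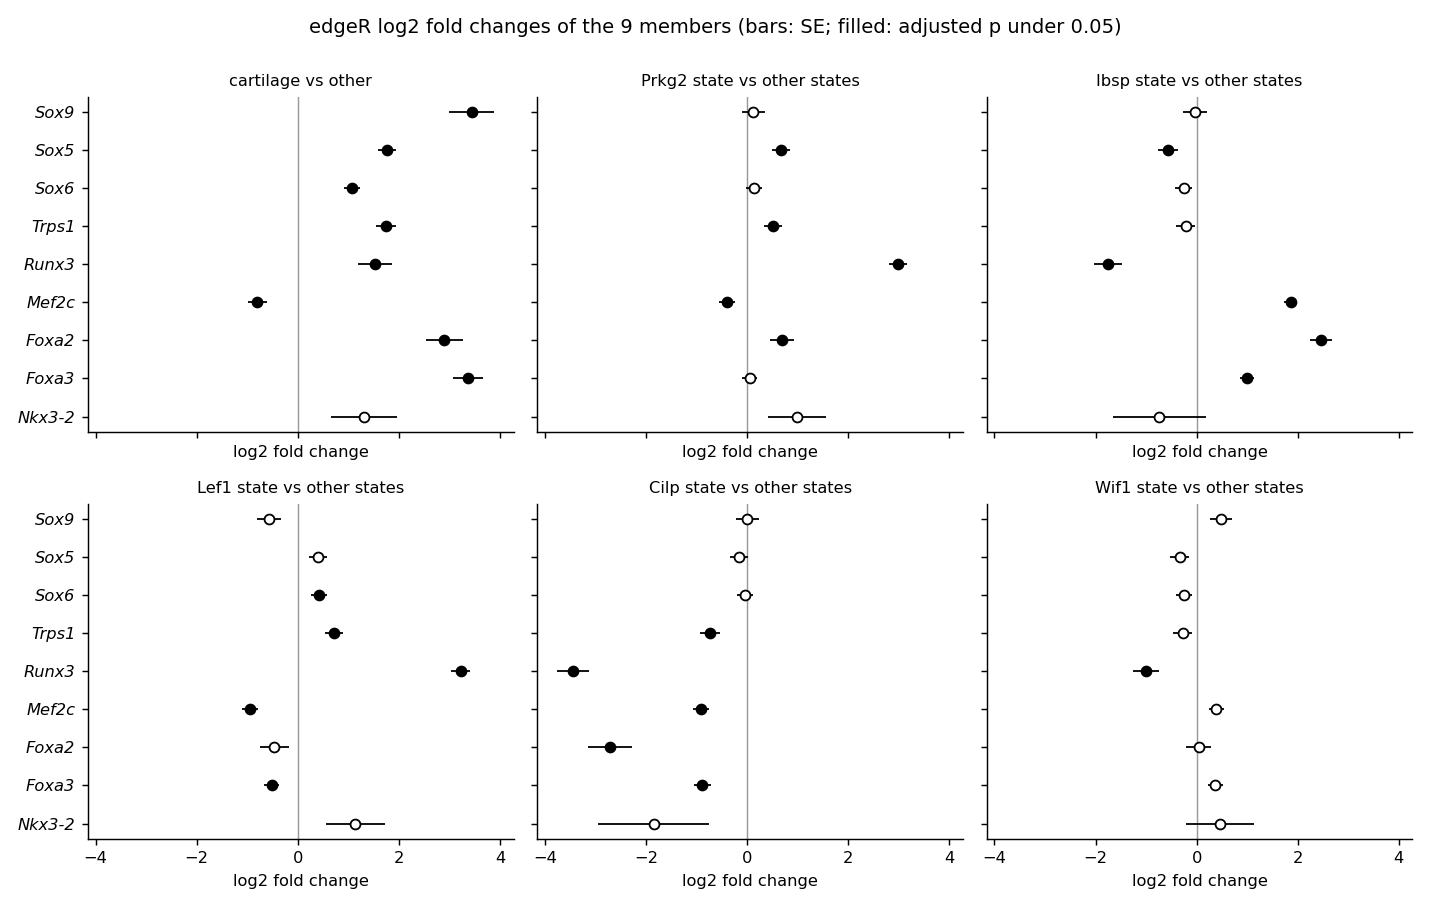
edgeR log2 fold changes (x axis) of the 9 members in cartilage-gated against other cells and in each state against the mean of the other 4, with SE bars and filled points where the adjusted p was under 0.05. Runx3 lies furthest to the right in the Prkg2 and Lef1 states, at 2.98 and 3.22, and furthest to the left in the Cilp state, at -3.45.

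Between the states, Runx3 varied most. Its product belongs to the runt-domain family with RUNX2, the factor of bone formation, and is also a known regulator of T and natural killer cells. Runx3 was at 269, 181 and 166 CPM in the Prkg2 state and at 320, 201 and 207 CPM in the Lef1 state. In the Wif1 state it was at 44.7, 14.6 and 16.0 CPM, in the Ibsp state at 52.5, 8.03 and 9.72 CPM, and in the Cilp state at 1.47, 7.67 and 3.23 CPM. Every library thus had Prkg2 and Lef1 far above the other 3 states, with no overlap, and in replicate 1 the Ibsp and Wif1 values were the highest of the 3 libraries. Leukocyte-gated cells, a known site of Runx3 expression, had 52.1, 58.0 and 62.0 CPM, so the Cilp state lay below them in each library.

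The states were tested in a fit of the 15 sums of state and library, each state against the mean of the other 4. The Prkg2 state had 5 of 9 members past the threshold (4 higher, 1 lower) where 51.0% of the 16235 genes tested passed, and the Lef1 state 5 (3 higher, 2 lower) where 29.0% passed. The Ibsp state had 5 (3 higher, 2 lower) against 12.7% of genes, the Cilp state 5, all lower, against 31.8%, and the Wif1 state 1 against 12.4%. The members' share was close to that of all genes in the Prkg2 state and above it in the Ibsp state, where the count fell to 2 without replicate 2 or without replicate 3. Since the members were chosen with earlier results of these data known, the shares are set side by side and do not test the members as a set. Runx3 was called in all 5 contrasts. The log2 fold change was 2.98 in the Prkg2 state (SE 0.19, edgeR adjusted p = 1.36e-10), 3.22 in the Lef1 state (SE 0.18, edgeR adjusted p = 6.99e-11) and -3.45 in the Cilp state (SE 0.32, edgeR adjusted p = 7.38e-08). These 3 calls held in every alternative, including without each replicate. It was -1.75 in the Ibsp state (SE 0.28, edgeR adjusted p = 0.000221) and -1.003 in the Wif1 state (SE 0.26, edgeR adjusted p = 0.0135). Both were lost without replicate 2 (-1.04 with edgeR adjusted p = 0.153, and -0.63 with 0.835) and without replicate 3 (-1.41 with 0.263, and -0.94 with 0.812). The Wif1 call was also lost with no replicate block (edgeR adjusted p = 0.127) and with DESeq2 (0.169).

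Neighbouring states in the order of a member's levels were compared in pairs in the same fit. Of the genes tested, 42.6% differed between Prkg2 and Ibsp, 25.4% between Prkg2 and Lef1, 47.7% between Prkg2 and Cilp, 44.3% between Prkg2 and Wif1, 24.3% between Ibsp and Lef1, and 14.1% between Ibsp and Cilp. The shares were 1.34% between Ibsp and Wif1, 37.6% between Lef1 and Cilp, 26.2% between Lef1 and Wif1, and 8.72% between Cilp and Wif1. For Runx3 the order of mean levels was Lef1, Prkg2, Wif1, Ibsp and Cilp. Lef1 and Prkg2 did not differ past the threshold (log2 difference 0.19, SE 0.23, edgeR adjusted p = 0.575), nor did Wif1 and Ibsp (0.60, SE 0.33, edgeR adjusted p = 0.698). The step from Prkg2 down to Wif1 was 3.19 (SE 0.28, edgeR adjusted p = 2.42e-08), and that from Ibsp to Cilp was 1.36 (SE 0.42, edgeR adjusted p = 0.0362).

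The share of cells with a Runx3 UMI followed the level. Each cell with at least 2000 UMIs was thinned to 2000, so that cells of unequal depth could be compared. Shallower cells were left out: 19 of 1412 in the Prkg2 state, 45 of 1631 in Ibsp and 32 of 1768 in Lef1. In Cilp they were 170 of 1535, in Wif1 71 of 1745 and among Acan-gated cells outside the state gates 341 of 4331. A Runx3 UMI was found in 33.2% ± 9.19 of thinned Prkg2-gated and 28.6% ± 4.36 of thinned Lef1-gated cells. The share was 4.47% ± 3.58 in the Wif1 state, 2.10% ± 1.18 in the Ibsp state and 0.658% ± 0.213 in the Cilp state. In leukocyte-gated cells it was 9.66% ± 1.15. Acan-gated cells that passed no state gate had 13.0% ± 6.48, with 5.56% in replicate 1, under the 8.57% of the Wif1 state in that library.

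Runx3 is annotated at chr4:135120652-135177990 on the plus strand (GENCODE M21, build GRCm38, which is mm10). RefSeq gives it 2 starts, and the 250 bases before each are shown because the gene had the widest range between states and because LEF1 and RUNX factors, encoded by a gate gene and by Runx2 and Runx3, have known short motifs. Capitals mark TGTGGT, the core of the RUNX motif, on either strand. The first window is chr4:135120395-135120644 and the second chr4:135152295-135152544 (plus strand, GRCm38.p6).
Runx3 start 1: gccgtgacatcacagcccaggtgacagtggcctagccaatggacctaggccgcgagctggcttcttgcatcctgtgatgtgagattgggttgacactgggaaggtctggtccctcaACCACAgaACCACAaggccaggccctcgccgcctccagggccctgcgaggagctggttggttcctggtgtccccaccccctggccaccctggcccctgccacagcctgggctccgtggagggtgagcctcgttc
Runx3 start 2: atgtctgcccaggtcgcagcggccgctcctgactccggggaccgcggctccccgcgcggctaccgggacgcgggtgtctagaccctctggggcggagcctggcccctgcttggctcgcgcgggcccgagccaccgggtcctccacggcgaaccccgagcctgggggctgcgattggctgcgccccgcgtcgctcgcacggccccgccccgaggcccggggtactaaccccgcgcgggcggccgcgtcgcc
The first window held 2 matches and the second none. Over all 32851 promoters of the table, 14.05% held at least 1 match and 1.27% at least 2. Neither window held CTTTGA, the core of the TCF/LEF motif, which 13.8% of promoters did, nor AACAAT, a SOX motif, which 9.42% did. The 3′ counts do not tell which start was used, and the 17 windows available for 7 of the members held the RUNX core in 3 cases, the TCF/LEF core in 3 and the SOX motif in 1.

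**Figure D2:**
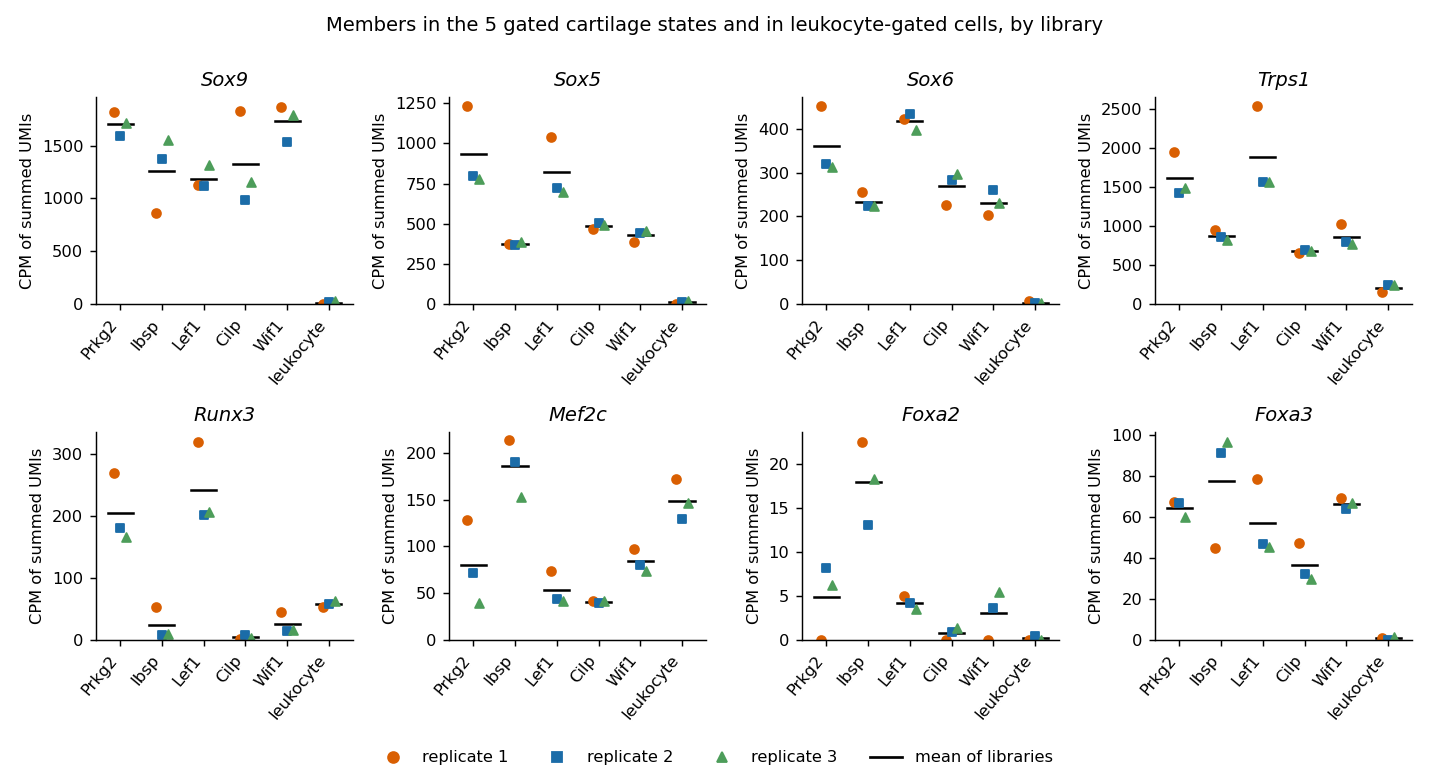
CPM of summed UMIs (y axis) of 8 members in the 5 states and in leukocyte-gated cells (x axis), a point per library and a bar at the mean. Runx3 and Trps1 are highest in the Prkg2 and Lef1 states, Mef2c and Foxa2 are highest in the Ibsp state, and Sox9 lies between 862 and 1869 CPM in every state and library.

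Foxa2 and Mef2c were highest in the Ibsp state. Mef2c encodes a MADS-box factor of muscle and nerve that is also required for chondrocyte hypertrophy, and it is expressed in osteocytes. It was at 214, 190 and 153 CPM in the Ibsp state, above every other state in the same library. In the Wif1 state it was at 97.5, 80.4 and 73.5 CPM, in the Prkg2 state at 128, 71.5 and 39.4 CPM, in the Lef1 state at 73.7, 43.6 and 41.9 CPM and in the Cilp state at 41.2, 39.7 and 41.5 CPM. The log2 fold change of the Ibsp state was 1.86 (SE 0.13, edgeR adjusted p = 5.81e-12), a 3.63-fold difference that held in every alternative. Ibsp was above its nearest neighbour, Wif1, by 1.17 (SE 0.18, edgeR adjusted p = 0.000143), in a pair where few genes differed. Wif1 was above Prkg2 by 0.63 (SE 0.19, edgeR adjusted p = 0.00806), while Prkg2 and Lef1 (edgeR adjusted p = 0.0979) and Lef1 and Cilp (0.946) did not differ past the threshold.

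In the Lef1 and Cilp states Mef2c was lower than in the mean of the others, by -0.94 (SE 0.16, edgeR adjusted p = 3.06e-05) and -0.91 (SE 0.16, edgeR adjusted p = 3.91e-05). The first was lost without replicate 2 (-0.81, edgeR adjusted p = 0.124). The Prkg2 state was also called, at -0.40 (SE 0.16, edgeR adjusted p = 0.0339), but its libraries did not share a direction, it missed the threshold without any 1 of the libraries, and without replicate 3 the sign turned (0.014, edgeR adjusted p = 0.99). It was also lost under 8 other alternatives, with adjusted p of 0.225 with no replicate block in edgeR and 0.101 with DESeq2.

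Apart from Nkx3-2, with its single counts, Mef2c was the member whose highest mean level lay outside cartilage. Bglap-gated cells, marked by osteocalcin of osteoblasts, had 678, 624 and 452 CPM, and the Myh11-gated cells of replicate 1, marked by a smooth muscle myosin, had 388 CPM. Leukocyte-gated cells had 172, 129 and 147 CPM, a range that met that of the Ibsp state. The 3 genes with the most similar pattern over 36 sums of population and library were Dmp1 (r = 0.811), Bglap (0.808) and Ifitm5 (0.786), all known from osteoblasts and osteocytes, Bglap being a gate gene as well. In the Ibsp state of replicate 1, where bone transcripts were highest, Mef2c was 214 CPM, against 190 and 153 CPM in the libraries where they were lower. Without replicate 1 the log2 fold change was 1.96.

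Foxa2, a pioneer factor best known from endoderm, rested on few counts. It had 6, 78 and 128 UMIs in the Ibsp state, or 22.5, 13.0 and 18.3 CPM. In the Prkg2 state it was at 0, 8.19 and 6.21 CPM, in the Lef1 state at 4.92, 4.22 and 3.51 CPM, in the Wif1 state at 0, 3.62 and 5.39 CPM and in the Cilp state at 0, 0.822 and 1.38 CPM. The Ibsp values did not overlap those of any other state. The zeros in replicate 1 are weak, since 3 UMIs, the limit that a count of 0 allows, would be 20.2 CPM in its Prkg2 state and 12.2 CPM in its Wif1 state.

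The Foxa2 log2 fold change was 2.45 in the Ibsp state (SE 0.22, edgeR adjusted p = 1.34e-09) and -2.72 in the Cilp state (SE 0.43, edgeR adjusted p = 1.12e-05), and both calls held in every alternative. In the Prkg2 state it was 0.70 (SE 0.24, edgeR adjusted p = 0.0167), a call lost with DESeq2 (adjusted p = 0.182), without replicate 2 (0.17, edgeR adjusted p = 0.93) and without replicate 3 (0.93, edgeR adjusted p = 0.358). Ibsp was above Prkg2 by 1.41 (SE 0.24, edgeR adjusted p = 2.93e-05), Prkg2 above Lef1 by 0.93 (SE 0.29, edgeR adjusted p = 0.0173), and Wif1 above Cilp by 2.21 (SE 0.52, edgeR adjusted p = 0.00543), with Lef1 and Wif1 not told apart (edgeR adjusted p = 0.411). In Lepr-gated and Tnmd-gated cells no Foxa2 UMI was counted in any library.

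Foxa3 spread less. It was at 44.96, 91.5 and 96.6 CPM in the Ibsp state, 69.1, 63.6 and 66.9 CPM in the Wif1 state, 67.2, 66.6 and 59.9 CPM in the Prkg2 state, 78.7, 46.8 and 45.3 CPM in the Lef1 state and 47.1, 32.3 and 29.8 CPM in the Cilp state. Replicate 1 broke the order, since its Ibsp value was its lowest, and the Ibsp and Lef1 directions below were seen in 2 of 3 libraries. The Ibsp state was called higher (0.99, SE 0.14, edgeR adjusted p = 1.31e-05), the Lef1 state lower (-0.52, SE 0.16, edgeR adjusted p = 0.0137) and the Cilp state lower (-0.89, SE 0.17, edgeR adjusted p = 0.000227). Each of these calls was lost without replicate 2 (0.68, -0.35 and -0.65, with edgeR adjusted p = 0.344, 0.756 and 0.23) and without replicate 3 (0.58, -0.35 and -0.60, with 0.65, 0.747 and 0.329). No pair of neighbouring states differed past the threshold, though Ibsp and Cilp, the ends of the order, differed by 1.502 (SE 0.20, edgeR adjusted p = 5.08e-06). In replicate 1 Ibsp was below Cilp, at 44.96 against 47.1 CPM. The Lef1 call was also lost with no replicate block (edgeR adjusted p = 0.137), with no scaling factor (0.0726) and with DESeq2 (0.169). In leukocyte-gated cells Foxa3 averaged 0.847 ± 0.761 CPM. Idi1 (r = 0.952) and Fdft1 (0.946), enzymes of sterol synthesis, and Fxyd3 (0.944) had the most similar pattern over the 36 sums.

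Sox9 was at 862 CPM or more in every state and library. It was at 1869, 1532 and 1791 CPM in the Wif1 state, 1815, 1587 and 1712 CPM in the Prkg2 state, 1823, 984 and 1159 CPM in the Cilp state, 862, 1376 and 1550 CPM in the Ibsp state and 1126, 1116 and 1313 CPM in the Lef1 state. No neighbours in this order differed past the threshold, and Sox9 passed in none of the 5 contrasts. The Lef1 state came closest (-0.57, SE 0.24, edgeR adjusted p = 0.0774), and Wif1 and Lef1, the highest and the lowest, did differ in pairs (0.84, SE 0.30, edgeR adjusted p = 0.0342). Replicate 1 decided this picture: without it the Ibsp, Prkg2 and Wif1 states passed as higher and the Lef1 and Cilp states as lower (log2 fold changes 0.34, 0.19, 0.44, -0.44 and -0.52 in that order), whereas the Cilp value of replicate 1 was above that of replicates 2 and 3. Rcan1 (r = 0.975), Sdc4 (0.960) and Baiap2l1 (0.947) had the pattern most like that of Sox9.

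Sox5 and Sox6 had their highest means in the Prkg2 and Lef1 states. Sox5 was at 1230.1, 799.8 and 779 CPM in the Prkg2 state and 1042, 725 and 700.4 CPM in the Lef1 state. It was at 466, 505 and 492 CPM in the Cilp state, 386, 444 and 459 CPM in the Wif1 state and 375, 370.2 and 385 CPM in the Ibsp state. In each library Prkg2 and Lef1 lay above the other 3 states. The Prkg2 state was called higher (0.67, SE 0.17, edgeR adjusted p = 0.00217) and the Ibsp state lower (-0.57, SE 0.19, edgeR adjusted p = 0.0447). Both were lost without replicate 2 (0.75 and -0.62, edgeR adjusted p = 0.109 and 0.685) and without replicate 3 (0.77 and -0.66, edgeR adjusted p = 0.0926 and 0.662). The Ibsp call missed the threshold under 7 further alternatives as well, with an edgeR adjusted p of 0.0527 to 0.141 (0.117 with no replicate block). No neighbours differed past the threshold, though Prkg2 and Ibsp, the ends of the order, differed by 0.99 (SE 0.23, edgeR adjusted p = 0.00102).

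Sox6 was at 423, 434 and 396 CPM in the Lef1 state and 450.4, 319 and 312 CPM in the Prkg2 state. The other states lay between 203 and 296 CPM in every library, below both. Only the Lef1 state was called (0.42, SE 0.16, edgeR adjusted p = 0.0471). That call was lost without replicate 2 (0.37, edgeR adjusted p = 0.691) and without replicate 3 (0.41, edgeR adjusted p = 0.615), and no pair in the order differed, the ends included (0.53, SE 0.21, edgeR adjusted p = 0.0563). It was lost under 8 further alternatives too, with an edgeR adjusted p of 0.0515 to 0.211 (0.119 with no replicate block). The genes closest in pattern were Mras (r = 0.895), Osmr (0.884) and Gpc6 (0.883) for Sox5 and Prnp (0.872), Kcnma1 (0.869) and Col6a3 (0.862) for Sox6. Sox5 spans 953.6 kb on chromosome 6 and shares its locus with 6 other counted genes, of which Sox5os4 on the opposite strand had the most UMIs, 341; Sox6 spans 567.9 kb on chromosome 7 with 2 genes on the opposite strand of 331 and 147 UMIs.

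The trio was also looked for cell by cell. Among cells thinned to 2000 UMIs, 27.9% ± 3.00 of Prkg2-gated and 28.4% ± 1.54 of Lef1-gated cells had a UMI of each of Sox9, Sox5 and Sox6. In the Wif1, Cilp and Ibsp states the share was 14.8% ± 3.10, 14.5% ± 0.254 and 13.1% ± 1.43. The 2 ranges did not overlap in any library. Such a share depends on how often each gene is seen by itself. Sox9, Sox5 and Sox6 were seen in 86.1%, 77.5% and 39.7% of thinned Prkg2-gated cells. In the Lef1 state they were seen in 72.7%, 72.4% and 52.3%. It was 79.2%, 52.0% and 30.2% in Wif1, 71.1%, 57.3% and 35.4% in Cilp and 72.8%, 50.7% and 34.2% in Ibsp. Whether cells held all 3 more often than these shares imply was not tested. At least 1 of the 3 genes was seen in between 90.9% and 98.5% of the cells of each state on average. No leukocyte-gated cell held all 3, and 7.15% ± 4.52 held at least 1. In Igfbp6-gated cells 4.66% ± 3.41 held all 3.

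**Figure D3:**
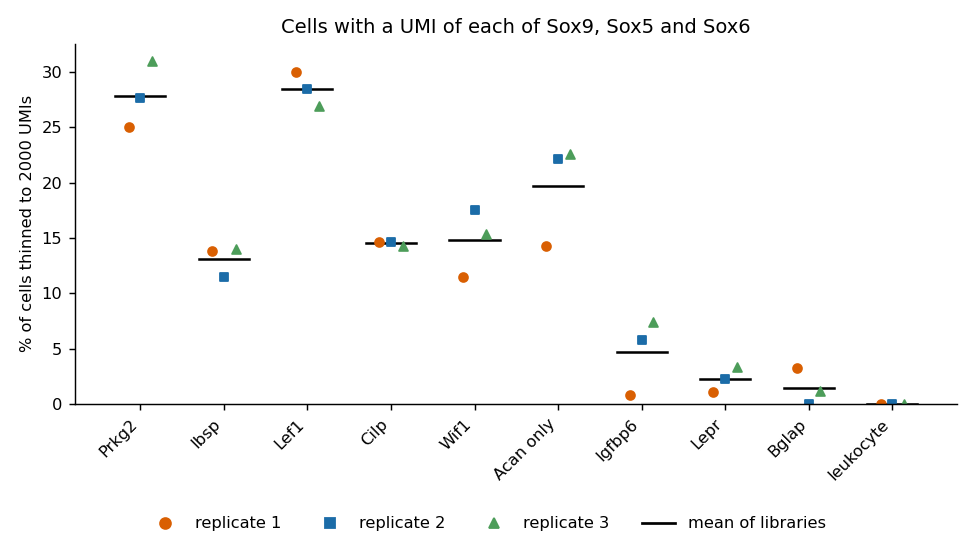
Percentage of cells with a UMI of each of Sox9, Sox5 and Sox6 after thinning to 2000 UMIs (y axis) in each population (x axis), a point per library and a bar at the mean. The Prkg2 and Lef1 states lie between 25% and 31.0%, and every library of the Wif1, Cilp and Ibsp states lies at 17.6% or less.

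Trps1 too had its highest means in the Lef1 and Prkg2 states, with the Cilp state lowest. It was at 2537, 1564 and 1567 CPM in the Lef1 state and 1943, 1421 and 1489 CPM in the Prkg2 state. In the Ibsp state it was at 955, 865 and 818 CPM, in the Wif1 state at 1032, 797 and 766 CPM and in the Cilp state at 656, 695 and 684 CPM. Lef1 and Prkg2 lay above the rest in each library. The Lef1 state (0.72, SE 0.18, edgeR adjusted p = 0.00246) and the Prkg2 state (0.51, SE 0.18, edgeR adjusted p = 0.0179) were called higher and the Cilp state lower (-0.73, SE 0.19, edgeR adjusted p = 0.00429). The 3 calls were lost without replicate 2 (edgeR adjusted p = 0.156, 0.348 and 0.222) and without replicate 3 (0.181, 0.41 and 0.241), with log2 fold changes between -0.76 and 0.78 in those fits, and the Lef1 call also when cells of several gates were left out (edgeR adjusted p = 0.0789). Prkg2 and Ibsp were the neighbours that differed (0.59, SE 0.24, edgeR adjusted p = 0.0444). Outside cartilage Trps1 was widespread: Igfbp6-gated cells had 642, 718 and 839.6 CPM, which met the level of the Cilp state, and leukocyte-gated cells had 153, 247 and 243 CPM. Chd9 (r = 0.927), Iqsec1 (0.907) and Chsy3 (0.904) had the most similar pattern.

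For Runx3 the most similar genes were Supt3 (r = 0.897), Tmcc3 (0.892) and Oxr1 (0.892). These correlations are across 14157 genes over sums that share libraries, so they describe likeness and carry no test. Among the members, Sox9 was most like Foxa3 (0.91), Sox5 (0.85) and Trps1 (0.82) and least like Mef2c (-0.33).

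**Figure D4:**
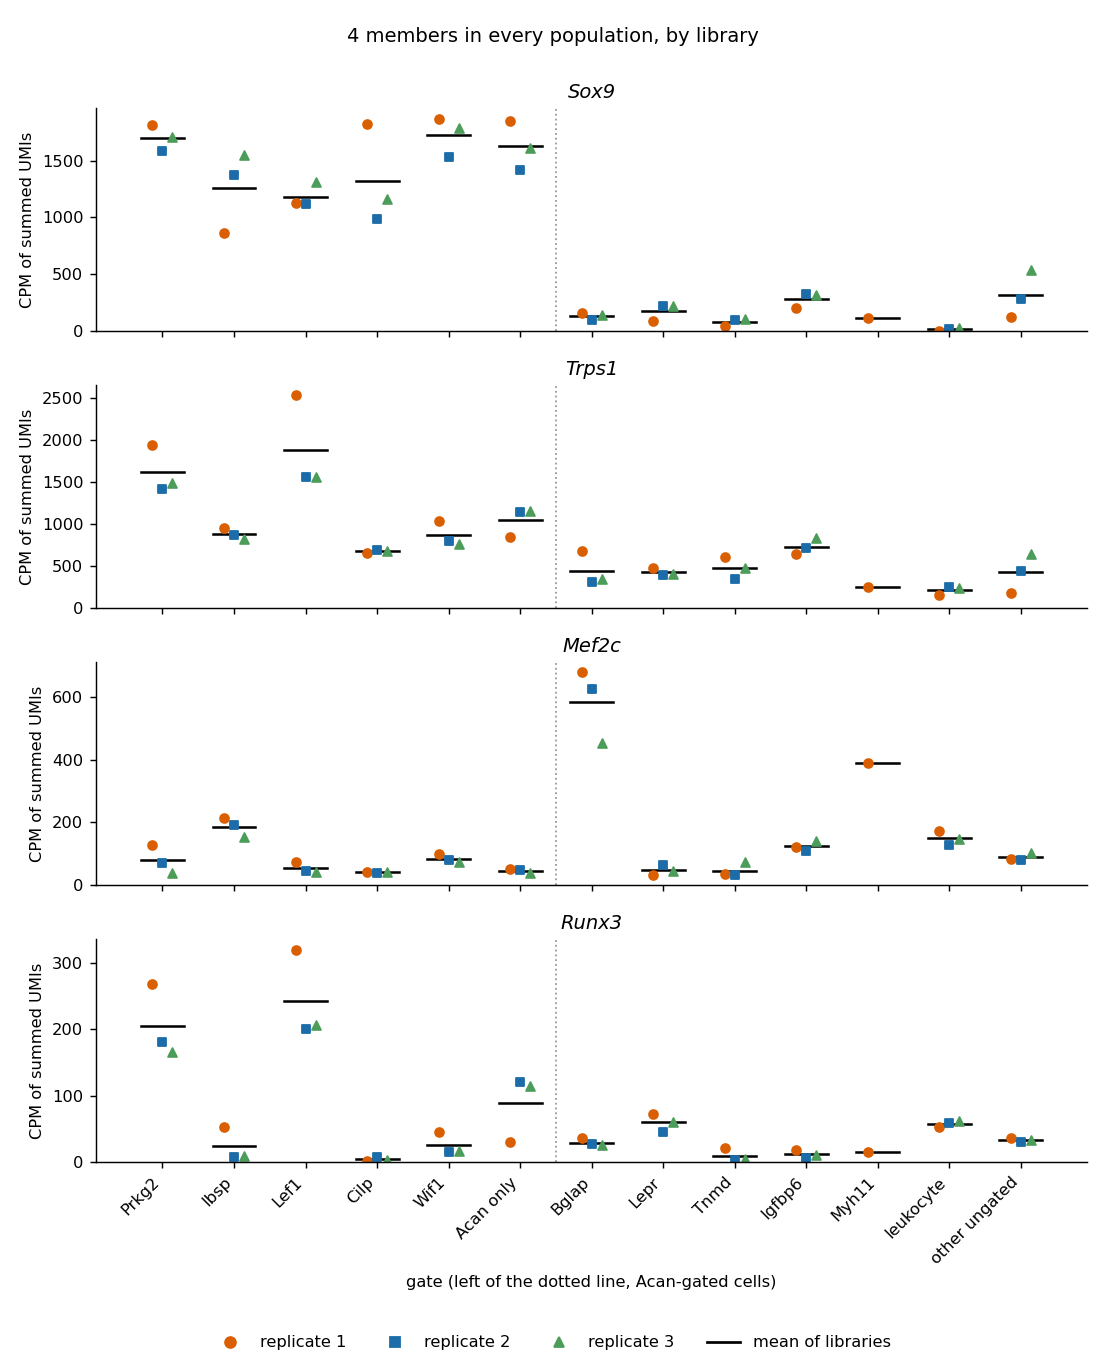
CPM of summed UMIs (y axis) of Sox9, Trps1, Mef2c and Runx3 in all 13 populations (x axis), a point per library and a bar at the mean; Acan-gated populations stand left of the dotted line. Sox9 is at 862 CPM or more in all of those and at 539.9 CPM or less elsewhere, whereas Mef2c peaks in the Bglap gate.

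Genes known as targets or companions of these factors were read in the same fits, against the shares of all genes called given above (32.6% for cartilage-gated cells, 51.0% for the Prkg2 state, 12.7% for Ibsp, 29.0% for Lef1, 31.8% for Cilp and 12.4% for Wif1). Of 11 matrix genes bound by the SOX trio, such as Col2a1 for type II collagen, 10 were higher in cartilage-gated cells, with a median log2 fold change of 4.62 against -0.01 over all genes, led by Matn1 (5.38). In the Prkg2 state 10 were higher and 1 lower (median log2 fold change 1.87, against 0.00 over all genes), led by Matn3 (3.83), Matn1 (3.69) and Col9a1 (2.72), with Comp lower (-0.80). In the Lef1 state 6 were higher and 1 lower (median 0.61, against 0.07), and in the Cilp state 10 were lower (median -2.001, against 0.05). Matn3, a matrix bridging protein, fell furthest there (-3.26, SE 0.52, edgeR adjusted p = 0.000426). Matn3 is also a check gene of the Prkg2 gate. The Ibsp state had 2 higher, Comp (1.53) and Col2a1 (1.44), and 2 lower, and the Wif1 state only Matn1 lower (-1.39). The Matn1 changes between states rest on counts of replicates 2 and 3 alone, since it had no UMI in any state of replicate 1. In replicates 2 and 3 Matn1 was at 52.2 and 27.8 CPM in the Prkg2 state and at 2.61 CPM or less in the Wif1 state.

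Sox9 and Col2a1 parted between libraries. Col2a1 was at 1077, 26199.6 and 24279 CPM in the Lef1 state, where Sox9 was at 1126, 1116 and 1313 CPM. In the Wif1 state Col2a1 was at 1146, 21209 and 20212 CPM and Sox9 at 1869, 1532 and 1791 CPM, and in the Cilp state Col2a1 was at 636, 5709.5 and 5375 CPM and Sox9 at 1823, 984 and 1159 CPM. In all 5 states replicate 1 had the lowest Col2a1, while in 3 of them it had the highest Sox9. Within replicates 2 and 3 the Cilp state had both the lowest Col2a1 and a Sox9 level under that of Prkg2 and Wif1. What set the Col2a1 level of replicate 1 was not tested, and the labels give no batch for it.

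**Figure D5:**
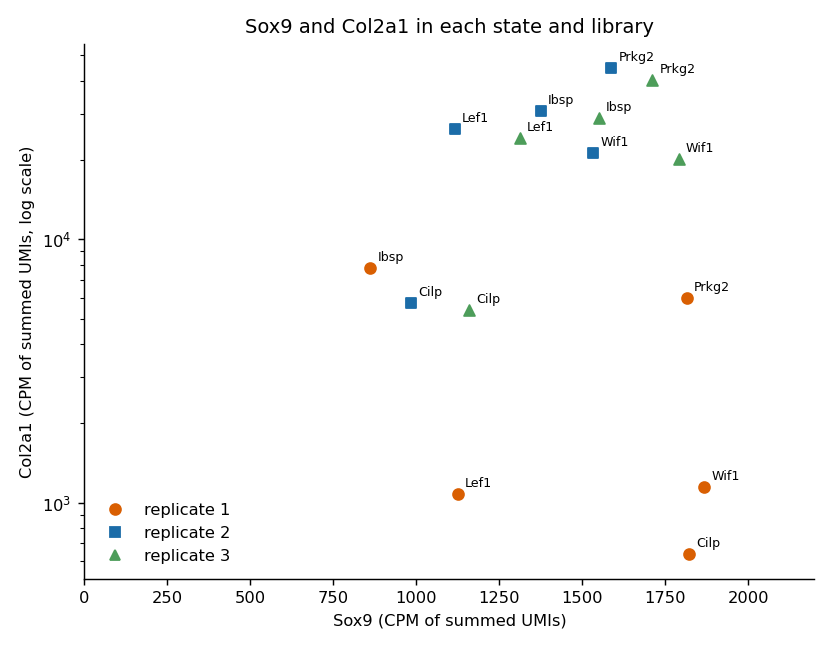
Col2a1 (y axis, log scale) against Sox9 (x axis), both as CPM of summed UMIs, for the 5 states in each of 3 libraries. Points of replicate 1 lie at 7797 CPM of Col2a1 or less whatever their Sox9 level, and those of replicates 2 and 3 lie at 20212 CPM or more except for the Cilp state.

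Of 8 hypertrophy genes, 6 were higher and Mmp13 lower (-2.42) in cartilage-gated cells, and 6 were higher in the Ibsp state (median log2 fold change there 2.50, against -0.04 over all genes, of which 12.7% were called), the state with the highest Mef2c and Foxa2. Alpl, the phosphatase of mineralisation, was at 2154, 1279 and 1233 CPM there and averaged at most 367 CPM in the other states (3.64, SE 0.18, edgeR adjusted p = 3.09e-15). Ihh and Spp1 (2.87) followed. Replicate 1, whose Ibsp sum of 31 cells held 9707 CPM of bone genes, was far above the others there: Spp1 was at 21093, 4954 and 4967 CPM, Mmp13 at 119.9, 10.53 and 5.43 CPM, Pth1r at 663, 229 and 188 CPM and Ihh at 29.97, 6.52 and 3.43 CPM. The part of the bone transcripts in these values was not tested. Col10a1 passed as higher in the Ibsp state as well (1.86, SE 0.30, edgeR adjusted p = 0.000667), and by more in the Cilp state (2.47, SE 0.29, edgeR adjusted p = 1.66e-05) and in the Wif1 state (2.18, SE 0.29, edgeR adjusted p = 0.000184); it was lower in the Prkg2 (-2.87) and Lef1 (-3.63) states. In the Prkg2 state 3 of the 8 genes were higher, Panx3 among them, and 3 lower; in the Lef1 state only Col10a1 was called.

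Of 22 other transcription regulators, 13 were higher and 3 lower in cartilage-gated cells, and 8 were higher and 6 lower in the Prkg2 state, 6 and 5 in the Ibsp state, 11 and 3 in the Lef1 state, 5 and 11 in the Cilp state and 5 and 6 in the Wif1 state. The count in the Prkg2 state is to be read against the 51.0% of all genes called there. Runx2, the relative of Runx3, was at 1023, 499.6 and 570.5 CPM in the Lef1 state, 739, 425 and 558 CPM in the Prkg2 state and 13.2, 12.1 and 8.08 CPM in the Cilp state. It was called higher in the Lef1 (2.67, SE 0.16, edgeR adjusted p = 5.21e-14) and Prkg2 states (2.45, SE 0.16, edgeR adjusted p = 2.27e-13) and lower in the Cilp state (-4.35, SE 0.25, edgeR adjusted p = 3.78e-14), the same directions as Runx3. In the Wif1 state Runx2 was also lower (-0.71), as Runx3 was, and in the Ibsp state it did not pass. Sp7, the osteoblast factor osterix, was higher in the Prkg2 (1.91), Ibsp (1.21) and Lef1 (0.93) states and lower in the Cilp (-3.35) and Wif1 (-0.71) states. Sox11 was called higher in the Prkg2 and Lef1 states and lower in the Ibsp state on counts of replicates 2 and 3 alone: it had no UMI in any state of replicate 1, 24.5 and 31.7 CPM in the Prkg2 state, 6.08 and 14.4 CPM in the Lef1 state and at most 0.692 CPM elsewhere. Erg, an ETS factor of joint cartilage, was higher in the Ibsp (1.63), Cilp (1.39) and Wif1 (1.37) states and lower in the Prkg2 (-2.65) and Lef1 (-1.73) states.

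Nkx3-2 could not be ranked. It had 18 UMIs in the Prkg2 state, 16 in the Lef1 state, 7 in the Wif1 state, 3 in the Ibsp state and 1 in the Cilp state over the 3 libraries, all of them from replicates 2 and 3, and it passed in no contrast. At this depth a difference between states was not detectable.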

How the data were processed

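In all, 3 libraries of sorted bone-lining cells from wild-type mice were analysed (10x Genomics 3′ kit v3.1), all of 1 group. The authors deposited raw UMI counts per gene and cell barcode, made with Cell Ranger 7.1.0 on mm10 per the labels; whether intronic reads were counted is not given in the sources used here. The libraries held 2606, 7172 and 10529 barcodes with 20985636, 79905165 and 69890252 UMIs. The study's methods state more cells than these barcodes, and its clusters were not used. The members, gate genes, check genes and gene lists were chosen with earlier results of these data known.

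Cells with under 200 genes or over 20% mitochondrial UMIs were removed, then 0.8% per 1000 cells by a score from simulated doublets (51, 362 and 837 cells). Cells were gated by marker UMIs, and cells passing the Acan gate and also the Bglap, Lepr or leukocyte gate (323) entered no population. Raw counts were summed per library and population of at least 10 cells. Genes with at least 30 UMIs in a fit were tested by edgeR 4.0.16 (R 4.3.3), quasi-likelihood, robust, TMM scaling, library as block because the populations compared come from the same libraries, with Benjamini-Hochberg adjustment over all genes tested and a threshold of 0.05. The test was tried on simulated data first. With the library as a block, the p-values measure how much the differences between populations varied among the 3 samples. That spread was estimated over all sums of a fit and with information from other genes. The labels do not say whether the samples were separate animals. Limits from counts of 0 (3 UMIs) cover counting error only. Levels are CPM of sums, and since 3′ counts depend on the gene they were compared between populations only. They carry no TMM factor, so a fitted log2 fold change can lie outside the differences of the levels shown. For Sox6 in cartilage-gated against other cells the fit gave 1.07. The differences of log2(CPM + 1) were 0.99, 0.79 and 0.48 in replicates 1, 2 and 3. Alternatives were DESeq2 1.42.0, other scalings, filters and gates, no block and leaving out each library. The members, gate genes, check genes and the genes of each list with the largest called changes (up to 3 per direction) are named. The levels of Col2a1 per library were chosen after its values were seen. Pattern likeness is Pearson's r of log2(CPM + 10) over 36 sums of at least 20 cells. Promoter windows are from RefSeq.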

Additional observations from a re-analysis of the deposited data

How the results depend on the processing

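Of 469 alternative values for the 29 called log2 fold changes of members, 402 kept direction and call, 66 kept direction but missed the threshold (34 of them without replicate 2 or 3) and 1 turned, Mef2c in the Prkg2 state without replicate 3 (0.014; -0.44 to 0.014 over the 3 libraries left out). The 10 calls that held throughout were Sox9, Sox5 and Foxa3 in cartilage-gated cells, Foxa2 and Mef2c in the Ibsp and Cilp states, and Runx3 in the Prkg2, Lef1 and Cilp states. Leaving out a library gave 4 to 8 members called for cartilage (8 with all), 1 to 5 for the Prkg2 state (5), 2 to 7 for Ibsp (5), 1 to 7 for Lef1 (5), 3 to 7 for Cilp (5) and 0 to 6 for Wif1 (1), and 1 to 21 neighbouring pairs (8). DESeq2 gave 3 for Prkg2 and 0 for Wif1 (6 at an unadjusted p under 0.05). With no replicate block there were 3 for Lef1, 0 for Wif1 (1 at an unadjusted p under 0.05 in edgeR) and 4 neighbouring pairs. Leaving out cells of several gates gave 3 for Lef1, and RLE scaling, a gate fold of 3 and a stricter Acan gate each gave 2 for Wif1. The 0 for Wif1 without replicate 2 or 3 was also 0 at an unadjusted p under 0.05 in edgeR. The cause was not tested.

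Over all genes, leaving out a library gave 1602 to 10820 calls for cartilage (6135 with all), 1753 to 10153 for Prkg2 (8286), 312 to 4160 for Ibsp (2064), 1029 to 6780 for Lef1 (4701), 1097 to 6918 for Cilp (5170) and 183 to 4109 for Wif1 (2006). No replicate block gave 1009 for Ibsp and 1026 for Wif1, and leaving out cells of several gates gave 1215 for Ibsp. With no scaling factor, chosen after seeing the data, the median of all genes shifted by -0.31 for cartilage, 0.15 for Prkg2, -0.19 for Ibsp, 0.20 for Lef1 and -0.12 for Wif1, and higher against lower calls became 1658 and 5362 (from 2569 and 3566), 5374 and 3144 (from 4258 and 4028), 725 and 2381 (from 1147 and 917), 4780 and 828 (from 3082 and 1619) and 887 and 1408 (from 1201 and 805). No member turned under it. Thinning to 1000 in place of 2000 UMIs lowers shares of cells by construction: that for Runx3 went from 33.2% to 16.6% in the Prkg2 state, 28.6% to 19.4% in Lef1, 4.47% to 2.72% in Wif1, 2.10% to 1.38% in Ibsp and 0.658% to 0.545% in Cilp. Replicate 1 held 16 to 197 cells per state, which limits what the 3 libraries show together.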
